A study of Pimephales promelas with 16 samples.

Results

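The 100 array probes described here stood on the same side of control with each of 3 compounds in ovary explants of the fathead minnow (Pimephales promelas), a small fish used in the testing of hormone-like chemicals. Explants are pieces of tissue kept in culture. The study holds 16 one-colour arrays, 4 of female ovary explants labelled control and 4 each of explants given DHT, Flutamide or LIN at 1e-06 M, all kept for 12 h. The labels do not say whether the controls received a carrier, or whether the replicates of a group came from separate fish. RNA was used only where its integrity number was above 7.5, per the labels.

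A level is the log2 of a probe's processed signal relative to the 75th percentile of its array. The members were chosen from 15208 probes, of which 11144 were well above background on all 16 arrays. In 6835 of these the mean level with DHT, with Flutamide and with LIN lay on one side of the control mean, and in 2309 of those the DHT mean was also at least 0.3 from it. The 100 with the largest smallest difference of the 3 were kept, 40 higher and 60 lower than control. The choice rests on the 3 differences from control, which share the same 4 control arrays, so these differences are described here and not tested. The last member kept was a lower probe with differences of -0.75 for DHT, -1.08 for Flutamide and -0.91 for LIN. The first probe outside had differences of -0.81, -0.96 and -0.75, so the limit divides probes that are nearly alike.

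DHT is the usual abbreviation of dihydrotestosterone, a potent androgen that binds the androgen receptor, a transcription factor switched on by its hormone. Flutamide is a drug that competes for the same receptor and blocks it. LIN is read here as linuron, the urea herbicide in the series title, which is known to bind the androgen receptor weakly and to act against androgens. In the fish ovary androgens are made by follicle cells and are the precursors from which aromatase makes oestrogens, the hormones that drive yolk production. Each probe carries an identifier and the name of a contig or sequence record in the files but no gene symbol. The sources used here hold no annotation or sequence of the probes. No gene, pathway or ovarian marker could therefore be assigned, and the labelled tissue was not checked against markers here. Of the 14499 names 0 matched the RefSeq gene table of assembly fPimPro1.hap1.1. Contig and record names are not gene symbols, so that count says nothing about the genes.

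Among the 40 higher members the median difference from control was 1.08 with DHT, 1.16 with Flutamide and 1.19 with LIN, folds of 2.11, 2.24 and 2.28. Among the 60 lower members it was -0.98 with DHT, -1.22 with Flutamide and -1.10 with LIN, folds of 1.98, 2.33 and 2.15. The higher members ranged from 0.76 to 2.30 with DHT, from 0.80 to 4.04 with Flutamide and from 0.79 to 4.60 with LIN. The lower ones ranged from -2.59 to -0.75 with DHT, from -2.91 to -0.76 with Flutamide and from -1.96 to -0.76 with LIN. DHT gave the smallest of the 3 differences for 55 members, LIN for 29 and Flutamide for 16. Flutamide gave the largest for 48, LIN for 36 and DHT for 16. The gap between a member's largest and smallest difference had a median of 0.42 and ranged from 0.035 to 3.17, and it passed 1 for 9 members.

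The balance of 40 higher to 60 lower depended on how arrays were brought to a common level. Over all 13146 probes tested, the median difference from control was -0.02 with DHT, -0.08 with Flutamide and -0.11 with LIN. The same choice made after median scaling gave 62 higher probes of 100, after quantile normalization 57, and from the authors' deposited table of log2 values 55. Centring on spike-in spots moved the median of all probes to -0.42, -0.64 and -0.09, and then 6 of the 100 chosen were higher. The original 100 all kept their direction in the 3 differences under each of those 4 scalings. Median scaling and spike-in centring move all probes of an array by the same amount. The differences moved by less than 0.753, the smallest of the chosen set, so no direction could turn under these scalings and nothing is read from this. With normexp background correction 71 of the 100 kept one direction. The choice made anew shared 78, 79, 80 and 54 of the original 100 under the 4 scalings, in the order given.

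UF_Ppr_AF_117886, a probe for contig FJU.5179.C2, had the largest smallest difference. Its levels were -5.14, -5.65, 0.89 and -4.65 on control arrays 1, 3, 4 and 6. With DHT they were -5.72, 0.94, 2.03 and -4.99 on arrays 1, 4, 5 and 6. With Flutamide they were 1.36, -5.23, 1.65 and -4.75 on arrays 2, 3, 5 and 6, and with LIN -3.36, 1.06, 1.69 and -5.70 on arrays 3, 4, 5 and 6. The groups overlapped throughout, and the levels split into a high and a low set by the number in the sample's title. All arrays numbered 2, 4 or 5 were high and all numbered 1, 3 or 6 were low, whatever the explant received. The number took 97.6% of the variance of this probe over the 16 arrays, computed without regard to group. The control mean was -3.64 ± 3.05 (SD, n = 4). The treated means, each over 4 arrays, were -1.93 ± 3.99 (SD) for DHT, -1.74 ± 3.76 (SD) for Flutamide and -1.58 ± 3.55 (SD) for LIN. With the number as a fixed block in the fit, the differences from control were 0.073, -0.032 and 0.27.

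UF_Ppr_AF_116852, for contig FJU.1245.C1, followed a different pattern. It stood at -1.48, -1.35, -2.16 and -4.75 on control arrays 1, 3, 4 and 6. With DHT it stood at -0.75, -1.26, -0.47 and -0.53 on arrays 1, 4, 5 and 6, above all control values. With Flutamide it stood at 0.02, -1.12, 0.13 and -0.09 on arrays 2, 3, 5 and 6, again above all controls. With LIN it stood at 1.26, -1.53, 0.13 and 0.47 on arrays 3, 4, 5 and 6, where array 4 lay within the control range. Control array 6 was far below the other 3 controls, and without it the differences were 0.91, 1.40 and 1.75 in place of 1.68, 2.17 and 2.52. The folds over all arrays were 3.21, 4.50 and 5.73. With the number as a fixed block the differences were 1.75, 1.91 and 2.56, and these also use control array 6. Against that control alone, the arrays numbered 6 differed by 4.22 with DHT, 4.65 with Flutamide and 5.22 with LIN. Against the other controls of the same number, DHT differed by 0.74 at number 1 and 0.90 at number 4. Flutamide differed by 0.23 at number 3, and LIN by 2.61 at number 3 and 0.63 at number 4.

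The lower members were led by UF_Ppr_AF_102005, for contig FJU.7300.C1. Its control levels were -1.77, 6.41, -1.20 and -2.43 on arrays 1, 3, 4 and 6. The 12 treated arrays lay between -2.69 and -0.37, and all but LIN array 6, the lowest at -2.69, were within the range of the controls. Control array 3 alone held the high value, at a processed signal of 256937 against at most 1962 on any other array, and the scanner software marked that spot as an outlier. Without it the 3 differences turned from -1.69, -1.49 and -1.70 to 0.36, 0.56 and 0.35, so this probe's place among the members rests on 1 spot.

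UF_Ppr_AF_102612, for contig FJU.88.C2, was the next lower member by the same order. Control arrays 3 and 4 stood at -0.99 and -1.56, and control arrays 1 and 6 at -6.09 and -6.83. With DHT the 4 values lay between -7.14 and -5.41 and with Flutamide between -6.80 and -5.52. These were weak spots, at processed signals of 9.7 to 28.7 with DHT and 17.7 to 38.6 with Flutamide. Control arrays 1 and 6 were as weak, at 16.0 and 30.0, so differences among these low values carry little weight. LIN array 3 stood at -2.42 and the other LIN arrays between -7.03 and -5.09. The low controls lay among the treated values, and the difference therefore came from 2 of the 4 control arrays. Against the control of the same number, DHT differed by -3.85 at number 4, by -0.48 at number 1 and by -0.30 at number 6. Flutamide differed by -4.54 at number 3 and by 0.25, the other direction, at number 6. LIN differed by -1.43 at number 3, by -3.53 at number 4 and by -0.19 at number 6.

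Most members overlapped between control and treated arrays in the same way. The 4 DHT arrays lay wholly on one side of the 4 controls for 8 of the 100, the Flutamide arrays for 14 and the LIN arrays for 10. Over the 11144 probes the same was true of 2.37% for DHT, 6.68% for Flutamide and 3.72% for LIN. By direction, the DHT arrays lay above all controls for 2 members (0.727% of probes) and below them for 6 (1.64%). For Flutamide the counts were 5 above (2.14%) and 9 below (4.53%), and for LIN 5 above (1.12%) and 5 below (2.6%). Since the members were chosen for these differences, nothing is read from their larger shares. Of the members 79 overlapped control in all 3 comparisons, 12 were clear of it in 1, 7 in 2 and 2 in all 3, beside 0.296% of the 11144 probes that were clear in all 3.

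Those 2 members were named after their values were seen, and both were lower. UF_Ppr_AF_109091, for contig FJU.6395.C1, stood at -3.01, -2.69, -2.67 and -3.04 on control arrays 1, 3, 4 and 6, a tight group at -2.85 ± 0.20 (SD, n = 4). With DHT it stood at -3.89, -4.12, -3.80 and -3.93 on arrays 1, 4, 5 and 6, equally tight at -3.94 ± 0.14 (SD, n = 4), a 2.12-fold lower signal. With Flutamide it stood at -4.49, -3.57, -4.43 and -4.98 on arrays 2, 3, 5 and 6, and with LIN at -4.00, -3.33, -5.20 and -5.08 on arrays 3, 4, 5 and 6. Its differences of -1.08, -1.51 and -1.55 were -0.89, -1.30 and -1.49 with the number as a fixed block. UF_Ppr_AF_109825, for contig FJU.8352.C1, was the other. It stood at -5.40, -4.09, -3.93 and -4.91 in control and at -5.81, -5.43, -5.88 and -5.85 with DHT, in the same array order. With Flutamide it stood at -5.87, -5.84, -7.16 and -6.26, and with LIN at -6.26, -5.81, -6.65 and -7.42. Its differences of -1.16, -1.70 and -1.95 changed little with the number as a fixed block, to -0.95, -1.71 and -1.98. Its treated levels, from -7.42 to -5.43, were about those of the weak DHT spots of UF_Ppr_AF_102612, from -7.14 to -5.41. Differences among such low values carry little weight. Control array 1, at -5.40, stood nearly level with DHT array 4, at -5.43. Both probes lay below the control of the same number in all 8 pairs.

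The fit across all probes called no member in any comparison with control. With limma's moderated test and Benjamini-Hochberg adjustment over 13146 probes, 0.0% were called for DHT, 0.0152% for Flutamide and 0.0228% for LIN at an adjusted p below 0.05, and 0 members were among them. At an unadjusted p below 0.05 there were 16 members for DHT, 30 for Flutamide and 35 for LIN, beside 2.05%, 10.4% and 10.4% of all probes. The rule used these comparisons, so nothing is read from the counts. With the number as a random block, 8 members passed for LIN, 4 higher and 4 lower, beside 147 of the 13146 probes. The smallest limma adjusted p among these 8 members was 0.00475. For Flutamide 1 lower member passed (limma adjusted p = 0.0374), and for DHT 0 (smallest limma adjusted p = 0.655). The count over all probes for Flutamide is given in the last section. With the number as a fixed block 0 members passed. The rule used these group differences, so nothing is read from these counts or p-values either. What these p-values weigh is the variation among the arrays at hand, which may be partly technical.

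The spread between arrays of one group was wide for these members. The within-group SD of a member's level had a median of 1.09 and ranged from 0.30 to 3.60, against a median of 0.40 over the 11144 probes. It exceeded that median for 99 members, and for 73 it lay above 0.82, the 90th percentile of the 11144 probes. The rule fixed a large difference of means and set no limit on the spread. By group, the median SD of the members was 1.13 in control, 0.65 with DHT, 0.83 with Flutamide and 1.05 with LIN, against 0.35, 0.33, 0.36 and 0.42 over the 11144 probes. The median half-width of the 95% interval of a difference was 1.51 for the members and 0.60 over those probes. These intervals come from the fit that took the arrays as independent and did not use the number in the title. With the number as a random block, the fitted correlation between arrays of one number was 0.631.

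Each treated group held an array numbered 5, and no control array had that number. Relative to each member's control mean, the median over the 40 higher members was 1.63 on DHT array 5, 2.28 on Flutamide array 5 and 2.07 on LIN array 5. The other treated arrays gave 0.79 to 1.15 for DHT, 0.48 to 1.30 for Flutamide and 0.28 to 1.44 for LIN. Over the 60 lower members array 5 gave -1.28 with DHT, -1.63 with Flutamide and -1.79 with LIN, and the other treated arrays lay between -1.71 and -0.43. In all 3 treated groups and in both directions the number-5 array was thus the farthest from control. For 47 members it was the most extreme array of the DHT group in the member's direction, for 57 that of the Flutamide group and for 50 that of the LIN group. The control arrays also differed, from -0.25 on array 3 to 0.73 on array 1 over the higher members and from 0.24 on array 3 to -0.55 on array 6 over the lower ones. Control array 1 therefore stood close to the treated arrays on higher members, and control array 6 on lower ones.

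Without the 3 number-5 arrays the members kept most of their differences. The median size, with the sign turned to the member's direction, was 0.85 for DHT, 0.96 for Flutamide and 0.86 for LIN, against 1.02, 1.22 and 1.12 with all arrays. The direction held for 99 members with DHT, 99 with Flutamide and 96 with LIN, and 66, 70 and 62 still passed the smallest difference of the chosen set, 0.753. With the number as a fixed block, which compares arrays within numbers, the median size was 0.69, 0.78 and 0.87. The direction then held for 96, 91 and 96 members, and for 88 it held in all 3 differences at once. In 34 members all 3 differences still passed 0.753. The differences shrank with the block but mostly kept their side. The members were chosen for large differences to one side on these same arrays, so nothing is read from these counts.

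Comparing each treated array with the control of its own number gave 8 pairs, 3 for DHT, 2 for Flutamide and 3 for LIN. The fewest members lay in their direction for Flutamide number 3, at 72 of 100, and the most for LIN number 6, at 84. The pairs share control arrays and were part of what the rule used. The medians ran from 0.26 for LIN number 4 to 1.71 for LIN number 3 over the higher members, and from -0.66 for LIN number 6 to -0.21 for LIN number 4 over the lower ones. At number 6, the 1 number with an array of every group, 70 members kept their direction with all 3 compounds. In all 8 pairs 31 members kept it, 14 higher and 17 lower, beside 8.93% of the 11144 probes that lay in one direction in all 8. Nothing is read from that share, since the rule chose on the same arrays. The 31 had a median within-group SD of 0.84.

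Leaving out a control array changed the choice of probes more than leaving out a treated one. Each control array enters all 3 differences and each treated array only 1, so a larger change is built into the rule. Leaving out 1 control array kept 96 to 98 members in one direction, and 89 members kept it whichever control was left out. In 73 members all 3 differences stayed at 0.3 or more throughout. The choice made anew without 1 control array shared 59 (array 1), 59 (array 3), 53 (array 4) and 56 (array 6) of the 100, against 70 to 94 without 1 treated array. Control array 3 was the most distant control from the treated side for 37 members, array 4 for 27, array 1 for 21 and array 6 for 15.

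Position on the slide and treatment largely cannot be told apart. Per the file headers all 4 control arrays lay in the first of 4 positions along their slide row, and 1 treated array, DHT array 4, lay there too. That array stood 0.79 above the control mean over the higher members and -0.85 from it over the lower ones, within the range of the other treated arrays. It was part of the DHT mean that the rule used, so its side was partly set by the choice. An effect of position was not tested. The arrays came from 3 slides with 7, 2 and 7 arrays. Slide 1 was scanned on a different day from slides 2 and 3, so slide 1 and scan day cannot be told apart. The 75th percentile of intensity was 921 to 1969 on slide 1 and 1995 to 3418 on the others. Within slide 1, with 1 control, the median size was 0.54 for DHT, 1.097 for Flutamide and 0.31 for LIN, with 75, 81 and 67 members in their direction. Within slide 3, with 2 controls, it was 1.38, 1.15 and 1.75, with 94, 90 and 96 members. On slide 2, with 1 Flutamide and 1 control array, it was 1.47 with 89 members. With slide as a fixed block the medians were 1.11, 1.38 and 1.17 and all 100 kept their direction. The same arrays chose the members, so the counts by slide are description only.

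The 3 comparisons among compounds use the same group means that chose the members, since the rule asked for one side and ranked by the smallest of the 3 differences. They are therefore given as a description too. The compounds were given at one concentration and for one time. With limma and Benjamini-Hochberg adjustment over 13146 probes, 0 members were called for Flutamide against LIN, for Flutamide against DHT or for LIN against DHT, beside 0.0% of all probes in each. At an unadjusted p below 0.05 there were 2, 1 and 2 members, beside 0.989%, 5.08% and 6.89% of all probes, and nothing is read from these counts. The median absolute difference between compounds was 0.20, 0.19 and 0.27 over the members and 0.14, 0.19 and 0.17 over the 11144 probes. The members' median interval reached 1.51 to either side, which is wider than the members' median differences from control. The fit behind these intervals did not use the pairing by number. A missed threshold does not show that the compounds acted alike on these probes. For UF_Ppr_AF_116852 LIN minus DHT was 0.84 (95% interval -0.63 to 2.30), and for UF_Ppr_AF_102612 it was 1.21 (-1.42 to 3.84).

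UF_Ppr_AF_109738, for contig FJU.12450.C1, a higher member, had the largest difference from control of any member with LIN. It stood at -5.19, -2.17, -2.90 and -5.50 on control arrays 1, 3, 4 and 6 and at -3.50, -0.97, -3.87 and -1.58 on DHT arrays 1, 4, 5 and 6. With Flutamide it stood at -0.32, -2.33, -0.998 and -3.70 on arrays 2, 3, 5 and 6, and with LIN at 3.17, -0.12, -1.17 and 0.75 on arrays 3, 4, 5 and 6. LIN values lay above all controls, and LIN overlapped DHT and Flutamide. LIN minus DHT was 3.14 ± 1.05 (SE), with an unadjusted interval from 0.89 to 5.39 (limma adjusted p = 0.486). Flutamide minus LIN was -2.50 ± 1.05 (SE). The probe is given as the member of lowest p in each of these directions. Its differences from control were 1.46, 2.11 and 4.60. UF_Ppr_AF_112130, for gi_73643778, had the lowest p among members lower with LIN than with DHT, at -1.16 ± 0.41 (SE), and among those lower with Flutamide than with DHT, at -0.91 ± 0.41 (SE). Among those higher with Flutamide than with another compound the lowest p belonged to UF_Ppr_AF_103783 against DHT, at 0.70 ± 0.34 (SE), and to UF_Ppr_AF_106096 against LIN, at 0.61 ± 0.52 (SE). UF_Ppr_AF_103783 had 1 spot marked as an outlier. Its control array 3 stood at 4.21 and the other controls between -2.65 and -2.57. The DHT mean of -2.72 lay below those other controls, and the Flutamide and LIN means of -2.02 and -2.07 above them. Its place among the lower members thus rests on control array 3.

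The Flutamide difference of 4.04 belonged to UF_Ppr_AF_107908, for gi_73575377, singled out after its values were seen. This probe also had the widest gap between compounds, 3.17. Its levels also split by number. Control and DHT arrays 1 stood at -5.13 and -3.55. Arrays 3 and 4 of every group lay between -5.40 and -4.89, arrays 5 between -1.02 and -0.93 and arrays 6 between 0.18 and 0.78. Flutamide array 2, the 1 array of its number, stood at 7.46 on a spot that was marked as an outlier. The number took 99.2% of the variance. With the number as a fixed block the differences of 1.29, 4.04 and 0.87 became 0.30, -0.044 and 0.014. Flutamide array 2, alone in its number, took no part in these block differences, and its whole deviation counted towards the number's share. For 23 members the number took more than 90% of the variance, beside 18.6% of the 11144 probes, and its median share was 63.3% for members and 70.9% for those probes. As a share of the variance within groups, counting only numbers with more than 1 array, the medians were 64.7% and 63.9%, so the order of members and other probes depends on the definition.

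The members gave weaker signals than most probes, a statement about spot brightness and not about the amount of RNA. Their median level over all arrays was -3.15, against -1.68 over the 11144 probes, with -1.99 for the higher and -3.72 for the lower members. Of 5 equal groups of probes by brightness, the dimmest held 31 members, the next 29 and 29, and the brightest pair 5 and 6. The lower members made up 26 of the 31 in the dimmest group, and the higher members 5 of the 6 in the brightest. No member spot was saturated, and 6 of 1600 member spots, each of a different probe, were marked as outliers.

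The members came from 100 different sequences, 82 of them contigs of 82 separate clusters and 18 single sequence records (18.0%, against 16.0% of the 11144 probes). For 5 members the array held a second probe of the same sequence, none of them a member. The second probe of FJU.927.C1 was well above background on all 16 arrays and stood 0.64, 0.46 and 1.35 above control, where the member stood 1.42, 1.25 and 1.26 above it. The second probe of FJU.9660.C1, also well above background on all arrays, stood on the other side of control, at -0.50, -0.51 and -0.89 where the member stood at 0.76, 1.09 and 1.101. For gi_73564829 the second probe, well above background on 15 arrays, gave 0.06, -0.03 and -0.74 beside -0.93, -1.28 and -1.39. For gi_73575377 it was so on 13 arrays and gave 0.96, 0.48 and 0.91 beside 1.29, 4.04 and 0.87. Over the 16 arrays, member and second probe correlated at r = 0.32 for FJU.927.C1, 0.29 for FJU.2533.C2 and 0.37 for gi_73564829. The r was -0.32 for gi_73575377 and -0.52 for FJU.9660.C1. For 169 probe pairs of one sequence, both well above background on all arrays, the median r was 0.14. The names of 19.0% of members and 21.8% of the 11144 probes carry a tag ending in rc. Probes were paired without regard to that tag. Whether both probes of a pair read the same strand was not checked, so a low or negative r need not be a disagreement about one transcript. The second probe of FJU.2533.C2 was well above background on 0 arrays. These sequences were taken because a second probe existed, and no probe letters are given in the sources used here.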

How the data were processed

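Per the file headers, spots were read with Agilent Feature Extraction 10.7.1.1, which wrote for every spot a background-subtracted, detrended intensity that is not scaled between arrays. Median intensities and flags of 0 or 1 (other values) were deposited beside it. A further table deposited by the authors holds log2 values of these arrays, normalized by a method that the sources used here do not give. Between arrays the 75th percentile of intensity lay at 921 to 3418, and between 80.9% and 87.8% of the probes passed as well above background. Precision is limited by the number of arrays.

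Levels are log2 processed signal minus log2 of the array's 75th percentile over the 15208 probes. One limma 3.58.1 fit of group means (R 4.3.3, two-sided, Benjamini-Hochberg) used 13146 probes well above background on at least 3 of 4 arrays of a group, without the 185 spots marked as outliers; the group means that chose the members keep those spots. The fit was run on simulated arrays with independent noise, which lack the correlation between arrays of one number given below. That run cannot show how the fit behaves under such correlation. Members and tests were chosen with earlier results of these data known. The probes named are the 2 higher and 2 lower with the largest smallest difference, and per comparison between compounds the member of lowest p in each direction; others are marked in the text. The lists of genes and markers drawn up could not be used, since 0 names had a symbol.

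Titles number the replicates. Deviations from group means correlated over probes for all 16 pairs of one number (r from 0.354 to 0.772), and each of 15 arrays correlated best with its own number among arrays of other groups, so the numbers pair the samples, though what they mark is not stated in the labels. Alternatives were median scaling, quantile normalization, normexp (on median signals, offset 50), the authors' log2 values, spike-in centring, replicate number or slide as a block, other filters and leaving out arrays.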

Additional observations from a re-analysis of the deposited data

Results flagged for a closer look

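In 24 sets of 4 values (4 named members and both medians over the members, in each group), the gap of the extreme array was set against Dixon's 95% critical value for 4 samples. It passed in 2 sets. The members were chosen on these same arrays and the sets share arrays, so no rate given by chance applies and nothing is read from the count. The level of UF_Ppr_AF_117886 on control array 4 was 0.89, far above the other 3 controls, as were the other arrays numbered 4. The level of UF_Ppr_AF_102005 on control array 3 was 6.41, far above the other 3 controls, on a spot the software marked as an outlier.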

How the results depend on the processing

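The 100 members kept one direction in all 3 differences for 71 to 100 of them: 71 with normexp, whose offset is added before scaling, 88 with the replicate block, 95 without the number-5 arrays, 98 without outlier spots, 96 to 100 without 1 array and 100 under the other scalings and the slide block. The rule chose the members for one direction on these arrays, so nothing is read from these counts. Which probes were chosen was less stable. Of the 100, the choice made anew shared 50 with normexp, 54 with spike-in centring, 44 with the number as a fixed replicate block, 53 with a random one, 53 without the number-5 arrays, 5 with no filter on dim probes, and 53 to 94 without 1 array, with all 4 controls below 60. It held 62 higher probes with median scaling, 71 with normexp, 6 with spike-in centring and 25 to 56 without 1 array, the 25 without control array 6.

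Of 312 values of the 12 named differences, 305 kept their sign. The named members were chosen for large differences to one side on these same arrays. Some alternatives, such as leaving out an array of another treated group, could not change a sign. Nothing is therefore read from this count. UF_Ppr_AF_117886 turned to -0.032 for Flutamide with the fixed replicate block. UF_Ppr_AF_102005 turned to 0.36, 0.56 and 0.35 without control array 3 or without outlier spots, and its lowest values without 1 array were -2.58, -2.39 and -2.59.

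Calls over all tested probes, 2 for Flutamide and 3 for LIN against control, moved as follows for Flutamide: 1 with quantile normalization, the authors' deposited table of log2 values or only probes above background on all arrays; 0 with normexp, the fixed block, no filter or without number-5 arrays; 4 with slide, 14 with the random replicate block, 114 with spike-in centring, and 0 to 3 without 1 array. For LIN there were 0 with normexp, spike-in centring, the fixed block or without number-5 arrays, 6 with slide, 10 in the authors' deposited table, 147 with the random block, and 0 to 81 without 1 array, the 81 without LIN array 4. Among members, LIN calls were 1 in the authors' deposited table, 8 with the random block and 0 to 3 without 1 array (3 without LIN array 4); Flutamide calls were 5 with spike-in centring and 1 with the random block. Flutamide against DHT gave 1 with median scaling, quantile normalization or the authors' deposited table; LIN against DHT gave 6 with quantile normalization and 46 with the random block. DHT against control gave 0 under every alternative run. The cause of these moves was not tested.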
